A study of Mus musculus and Homo sapiens with 32 samples.

Results

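Cytosolic ribosomal protein genes code for the proteins of the 40S and 60S ribosomal subunits. Here they were taken as every gene whose symbol is Rpl or Rps with a number and an optional a, x, y or l, together with Rpsa, Rplp0, Rplp1 and Rplp2, leaving out the Rps6k kinases and pseudogenes. The rule found 56 of the 11050 genes that the mouse genotype files list, of which 18 belong to the small subunit, 34 to the large subunit, and 4 (Rpl3l, Rpl7l1, Rpl10l and Rps4l) are paralogs outside the usual set. A further 29 protein-coding genes of the RefSeq table fit the rule but have no entry in those files and were not analysed here. In the same files, 1 region shared by Rps21 and a microRNA gene was left out, because it cannot be given to Rps21 alone.

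The method, m6A-CT, uses an antibody against N6-methyladenosine (m6A) to direct a transposase to methylated RNA paired with cDNA inside nuclei, and the input libraries were tagmented without antibody. The genotype comparison used C57BL/6 Mettl3-/- (KO) and C57BL/6 wild-type mouse embryonic stem cells, each with m6A-CT (MilliporeSigma antibody) and input libraries. Peak lists came from the E14 line, also mouse embryonic stem cells, with 5K, 25K or 100K nuclei per assay, from expanded potential stem cells (EPSC) of the E14 line at 100K, and from CF1 mouse embryonic fibroblasts (MEF) at 100K, all with a Synaptic Systems antibody. Each of these groups had 2 libraries of each kind, but the deposited values hold 1 number or 1 peak list per group. There is therefore no replicate error for any value below, no test between groups, and whether libraries came from separate cultures is not given in the sources used here. Brackets after a value hold 95% counting intervals, which cover counting error only.

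Ribosomal proteins and ribosomal RNA are made in matching amounts, and many ribosomal protein transcripts begin with a C followed by a run of pyrimidines, the terminal oligopyrimidine (TOP) tract, through which mTOR and LARP1 control their translation in mammals. Their introns often carry small nucleolar RNAs (snoRNAs), which guide the modification of ribosomal RNA. Mettl3 is the catalytic subunit of the nuclear complex that writes m6A on messenger RNA, and short, abundant housekeeping transcripts such as these are known for carrying little of it. Their messages also have many processed pseudogene copies, so reads of a member cannot always be told apart from reads of a copy.

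Start sites are shown for 4 members that recur below, to let the TOP tract be seen. Each run holds 30 bases, from 9 before to 20 after the RefSeq start and including it, credited to RefSeq on GRCm38.p6. Capitals mark a tract found by the rule, a C followed by at least 4 pyrimidines (C or T) with its first base within 5 bases of the start.
Rps24 (chr14:24490669-24490698, plus strand): ctggggtCCTTCCTTgcgcgttgatatgat
Rpl15 (chr14:18270966-18270995, minus strand): gaaagCCTTCTTCCTTTCCTCTggcggcag
Rpl4 (chr9:64173378-64173407, plus strand): ttcctgtgggagcagccgggtagagaggag
Rplp0 (chr5:115559458-115559487, plus strand): gggtttcgaggaccgcctggttctcctata
Rps24 has a second RefSeq start, downstream, with no tract by this rule. By the same rule, read on the transcribed strand only, 16 of the 41 members with a promoter entry (39.0%) held a tract, against 3767 of 17492 protein-coding genes (21.5%). No match says only that these letters are not in this window of the RefSeq start. An annotated snoRNA lay inside 21 of the 56 members (37.5%), against 266 of 10469 protein-coding genes of the files (2.54%).

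Depth came from the genotype table of regions, where values are RPM, that is, reads scaled to a fixed library total, and step in whole reads. The columns sum to 37532658 reads in Mettl3 KO m6A-CT, 51031598 in Mettl3 KO input, 39310394 in wild-type m6A-CT and 45090626 in wild-type input. Member regions took 0.127%, 0.0986%, 0.114% and 0.120% of these reads. Regions of Lars2 and of the ribosomal RNA precursor Rn45s took 54.5%, 81.0%, 36.5% and 76.4%. Leaving those 2 genes out of the totals shifts every log2 m6A-CT over input value by -1.26 in Mettl3 KO and by -1.43 in wild-type. Absolute ratios thus depend on the scale, and members are read below against all regions on the same scale. The targeted gene had 1 region, with 126 input reads (2.47 RPM) in the libraries labelled Mettl3 KO and 77 (1.71 RPM) in those labelled wild-type, a 1.45-fold difference [1.08 to 1.95]. Which part of Mettl3 was deleted is not given in the sources used here, so this region does not check the labels, and Mettl3 KO and wild-type below name libraries by their labels. Of the stem cell markers, Pou5f1 had 353 RPM per kb of region in Mettl3 KO input and 451 in wild-type input, and Nanog 43.7 and 61.7.

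Ribosomal protein regions carried little m6A-CT signal over input, and the difference between the libraries labelled Mettl3 KO and wild-type was smaller than for most other regions, which were lower in Mettl3 KO. The table held 56 regions of 33 members, and 48 regions of 26 members had at least 50 reads over the 4 columns. Their median log2 m6A-CT over input was 0.34 in Mettl3 KO and 0.37 in wild-type, against 1.00 and 1.75 over all 30318 regions with as many reads. At least 2-fold enrichment was reached by 7 of the 48 member regions in Mettl3 KO, where 49.9% of all regions reached it. In wild-type it was reached by 8 of the 48, against 74.7% of all regions. By gene, using the region with most reads, it was reached by 4 of 26 members in Mettl3 KO (53.6% of all genes) and by 7 in wild-type (74.2%). The region table holds almost only regions that the authors' own test called different between genotypes, so its members are those with a call, not a sample of all ribosomal protein exons.

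The change, meaning log2 m6A-CT over input in Mettl3 KO minus that in wild-type, had a median of 0.09 over the 48 member regions and of -0.80 over all regions. The sign of the members' median depends on the scale: it was 0.26, against -0.64 over all regions, with Lars2 and Rn45s left out of the totals, and -0.45, against -1.30, by the log2 fold change of the authors' deposited table. On the RPM scale the change was at least 2-fold lower in Mettl3 KO in 6 member regions, where 39.4% of all regions were, and at least 2-fold higher in 5, where 8.33% were. By gene, it was at least 2-fold lower in 3 of 26 members (37.8% of all genes) and higher in 5 (9.09%). The m6A-CT columns alone ran the same way, with a median difference in log2 RPM of 0.04 for members and -0.74 for all regions. On that measure 1 member region was at least 2-fold lower in Mettl3 KO, against 36.2% of all regions, and 5 were higher, against 3.3%; by gene, 1 member was lower (35.1% of all genes) and 4 were higher (4.56%). Small subunit members (17 regions of 7 genes) had a median change of 0.19 and large subunit members (29 regions of 17 genes) one of 0.01. These medians are over regions, and Rps3 gave 5 of the 17 and Rpl4 7 of the 29. By gene, the middle values were 0.28 (Rps3) and -0.13 (Rpl19), so the sign for the large subunit depends on the unit.

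Rpl4, a large subunit protein that lines the exit tunnel, had the most reads of all members and 7 regions along its transcript (mm9, chr9:64021194-64025600, plus strand). Its m6A-CT levels were 12.2, 68.5, 146, 135, 129, 112 and 50.1 RPM from 5′ to 3′ in Mettl3 KO, and 14.0, 75.5, 146, 132, 129, 109 and 49.8 RPM in wild-type. From the third region on, these 2 series nearly coincide on the RPM scale. Its input levels were 29.5, 110.0, 104, 80.5, 66.0, 51.2 and 20.3 RPM in Mettl3 KO, and 33.9, 142, 175, 137, 113, 84.0 and 33.7 RPM in wild-type. Input on the RPM scale was thus lower in Mettl3 KO in every region. It was 0.870 of wild-type in the first and between 0.582 and 0.610 in the last 5. Leaving Lars2 and Rn45s out of the totals adds 0.31 to each log2 input difference, Mettl3 KO minus wild-type. It adds 0.48 to each log2 m6A-CT difference. The input difference of the first region, -0.20, then changes sign, and the m6A-CT series no longer coincide.

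Read as log2 m6A-CT over input, Rpl4 climbed along the transcript in both genotypes. It ran from -1.27 in the first region to 1.31 in the last in Mettl3 KO, and from -1.28 to 0.56 in wild-type. The change between genotypes was 0.01 [-0.20 to 0.21] in the first region, 0.23 [0.14 to 0.32] in the second and between 0.74 and 0.80 in the other 5. The authors' deposited table gave log2 fold changes of -0.48 and -0.26 for the first 2 regions and between 0.25 and 0.30 for the other 5. Regions of 1 transcript share their libraries and are not replicates of each other.

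Rps3, a small subunit protein at the mRNA entry channel (mm9, chr7:106627804-106631200, minus strand), showed no such climb. Its 5 regions had log2 m6A-CT over input of 0.20, 0.07, -0.04, -0.16 and -0.05 from 5′ to 3′ in Mettl3 KO, and of 0.01, -0.17, -0.36, -0.44 and -0.24 in wild-type. All 5 were slightly higher in Mettl3 KO, by 0.19 to 0.32. Rps9, also of the small subunit, differed little: its 4 regions had 0.10, 0.59, 0.77 and 0.35 in Mettl3 KO and 0.24, 0.59, 0.79 and 0.48 in wild-type, and every counting interval of the change held 0.

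**Figure D1:**
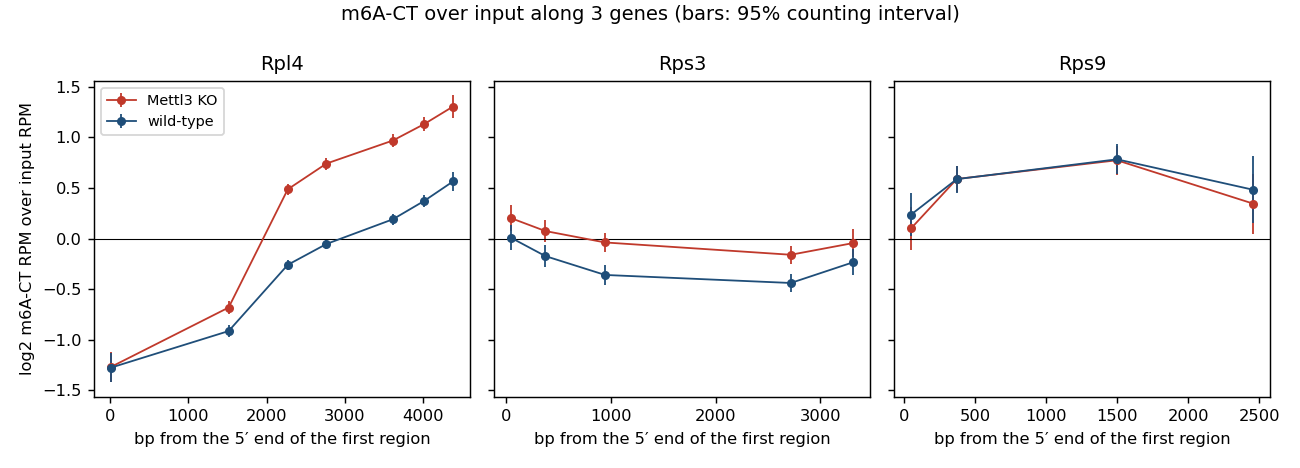
Log2 m6A-CT RPM over input RPM (vertical axis) against distance in bp from the 5′ end of the first region (horizontal axis) for Rpl4, Rps3 and Rps9 in Mettl3 KO (red) and wild-type (blue), with 95% counting intervals. Rpl4 climbs from -1.27 to 1.31 in Mettl3 KO and from -1.28 to 0.56 in wild-type, while Rps9 overlaps between genotypes.

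Among large subunit members, the change was lowest in Rpl29, at -2.88 [-4.48 to -1.28]. It was -1.91 [-3.24 to -0.57] in Rpl22, an RNA-binding protein of the large subunit, and -1.38 [-2.43 to -0.34] in the most read region of Rpl13. These rest on few reads. Rpl22 had 15 m6A-CT and 17 input reads in Mettl3 KO, against 51 and 13 in wild-type. Rpl13 had 24 and 38 reads in Mettl3 KO, against 43 and 22 in wild-type, and its second region had 30 and 16 against 53 and 6. Lower values that stayed within 2-fold were -0.61 in Rpl27a, -0.43 in Rpl23, -0.29 in Rplp1, -0.28 in Rpl36, -0.19 in Rpl32 and -0.13 in Rpl19. The second region of Rpl36 stood just past the threshold (change -1.003 [-1.86 to -0.14]). In the small subunit, the first of 3 Rps24 regions was past it as well (-1.19 [-2.14 to -0.25]), while its most read region had a change of 0.03.

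The change was highest in Rps12, a small subunit protein, at 3.40 [1.19 to 5.61], but this value rests on 2 input reads in Mettl3 KO. That region had 51 m6A-CT and 2 input reads in Mettl3 KO, against 43 and 15 in wild-type. Rpl37a, a zinc finger protein of the large subunit, had 33 and 7 reads in Mettl3 KO, against 10 and 13 in wild-type (change 2.86 [1.19 to 4.53]). Rpl15, a large subunit protein whose start is shown above, had 31 and 34 reads in Mettl3 KO, against 14 and 68 in wild-type (2.39 [1.31 to 3.48]). Its log2 m6A-CT over input in wild-type, -2.08, was the lowest of the members.

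Better covered members with a higher value in Mettl3 KO were Rpl6, Rps14 and Rps4x. Rpl6, a large subunit protein, had 5.43 RPM in m6A-CT and 4.61 RPM in input of Mettl3 KO, against 3.49 and 6.54 RPM in wild-type (1.15 [0.75 to 1.55]). Rps14, a small subunit protein, had 8.71 and 6.90 RPM in Mettl3 KO, against 5.24 and 8.45 RPM in wild-type (1.03 [0.70 to 1.35]), just past 2-fold. Rps4x, the X-linked form of a small subunit protein, had 27.8 and 23.9 RPM in its first region in Mettl3 KO, against 18.8 and 30.6 RPM in wild-type (0.92 [0.75 to 1.10]), just short of it. On the RPM scale, m6A-CT was higher and input lower in Mettl3 KO in these 3 genes. In the last 5 regions of Rpl4, m6A-CT was between 0.998 and 1.03 of wild-type and input was lower. Which column differs depends on the scale. Without Lars2 and Rn45s in the totals, each log2 input difference rises by 0.31 and each m6A-CT difference by 0.48. The Rps14 input difference, -0.29, then changes sign.

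The authors' deposited table called 41 member regions lower and 14 higher in Mettl3 KO at their FDR of 0.05, and gave no FDR for 1. Over all regions it called 88.8% lower and 11% higher. Their log2 fold changes stand a median of 0.50 below the RPM scale. As a count, 17 of the 41 member regions called lower (41.5%) were higher in Mettl3 KO by RPM, against 716 of 29724 such regions over all genes (2.41%). Rplp0 and all 5 regions of Rps3 are among the 17.

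In the input, ribosomal protein RNA stood high per length, while its difference between genotypes was near that of all regions. The median log2 input difference was -0.02 over the 48 member regions and -0.03 over all regions. Per kb of the region with most reads, the median over the 33 members was 12.02 RPM in Mettl3 KO and 10.1 RPM in wild-type, against 1.63 and 1.70 RPM over all 10118 genes. Ordered by the wild-type level, the highest input levels per kb were those of Rpl4 (1042 RPM in Mettl3 KO and 1748 in wild-type), Rps3 (344 and 398), Rpl6 (184 and 262), Rps9 (177 and 181) and Rps14 (55.2 and 67.6). How reads at the ends of a region were counted is not given in the sources used here, and this bears most on short regions such as the 25 bp one of Rpl6. Among the 48 regions, input was at least 2-fold higher in Mettl3 KO in 4, where 9.91% of all regions were, and at least 2-fold lower in 3, where 8.67% were. With Lars2 and Rn45s left out of the totals these counts were 6 and 1, against 16.9% and 4.3% of all regions. In bulk nuclei, fewer nuclei with a transcript and less of it per nucleus cannot be told apart.

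Rpl29, a large subunit protein that also binds heparin, had the widest input difference of the members. Its only region (mm9, chr9:106333406-106333899, plus strand) had 1082 input reads (21.2 RPM) in Mettl3 KO, against 4 (0.0887 RPM) in wild-type. That is a 239-fold difference [93.1 to 879]. In m6A-CT it had 464 reads (12.4 RPM) in Mettl3 KO, against 15 (0.382 RPM) in wild-type. Both kinds of library thus show the same step, and its change of -2.88 divides by 4 wild-type input reads. Neither MeTPeak list holds a peak in Rpl29.

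The stalk proteins Rplp0, Rplp1 and Rplp2 recruit translation factors to the large subunit. Rplp0 was higher in Mettl3 KO in both kinds of library. Its first region had 54.8 RPM in m6A-CT and 38.0 RPM in input of Mettl3 KO, against 22.4 and 17.6 RPM in wild-type, and its second had 60.6 and 32.8 RPM, against 13.3 and 8.16 RPM. The input differences were 2.16-fold [1.99 to 2.35] and 4.01-fold [3.58 to 4.51], while the change was 0.18 in both regions. Rplp1 input was 1.21 to 1.64-fold higher in Mettl3 KO over 3 regions, with changes between -0.29 and -0.14. Rplp2 was not among the 56 members, and Rpsa, the small subunit protein also known as the laminin receptor precursor, had MeTPeak peaks but no entry in the region table.

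**Figure D2:**
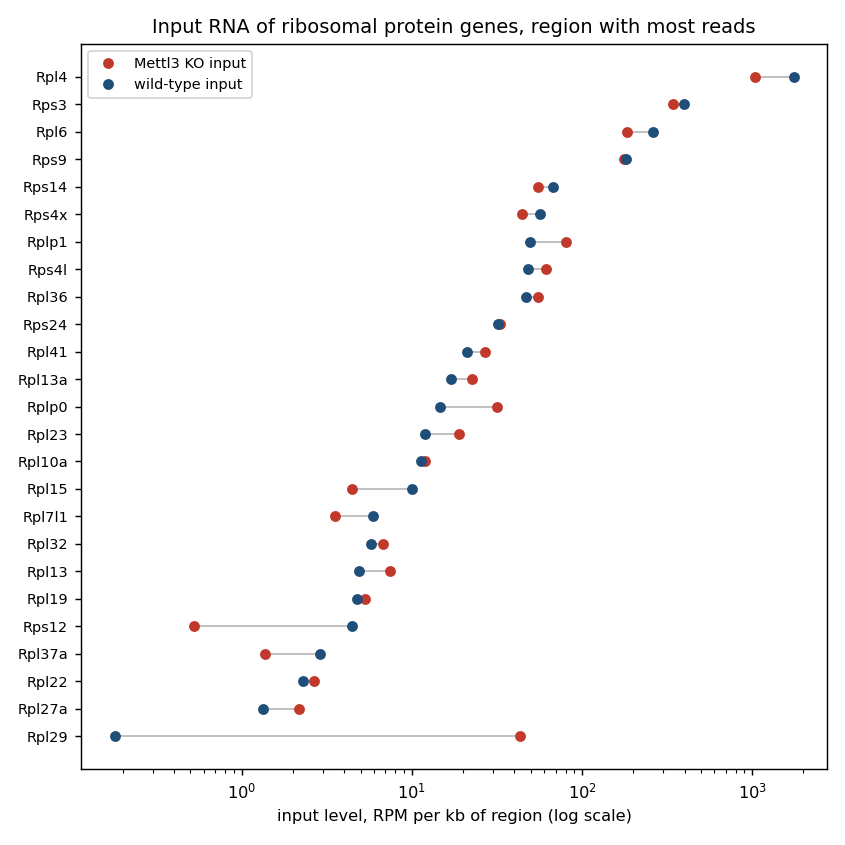
Input level in RPM per kb of the most read region (horizontal log axis) for members with at least 50 reads, in Mettl3 KO (red) and wild-type (blue), ordered by the wild-type level. Most pairs lie close together, and Rpl29 stands apart with 42.9 RPM per kb in Mettl3 KO and 0.180 in wild-type.

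The authors' MeTPeak lists, which hold peaks called within each genotype, gave members more often in the libraries labelled Mettl3 KO. A peak was listed in 44 members in Mettl3 KO (78.6% of 56) and in 24 in wild-type (42.9%). Over all 11050 genes the shares were 41.9% in Mettl3 KO and 52.8% in wild-type. All 24 members with a wild-type peak also had one in Mettl3 KO, 20 had one in Mettl3 KO only, and 12 had none. Of all 11050 genes, 3953 had a peak in both lists, 682 in Mettl3 KO only and 1885 in wild-type only. Folds below are those of the authors' peak caller, and serve to rank peaks within a list.

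Member folds were low. The median fold was 2.61 over the 73 member peaks in Mettl3 KO and 2.495 over the 46 in wild-type, against 3.25 and 3.71 over all peaks. A peak of at least 5-fold was listed for 5 members in Mettl3 KO (11.4% of those with a peak, against 54.6% of genes) and for 2 in wild-type (8.33% against 72.3%). In Mettl3 KO these were Rps20 (8.67), Rps12 (6.00), the paralog Rpl7l1 (5.40), Rpl5 (5.00) and Rps24 (5.00). In wild-type they were Rps15a (6.00) and Rps20 (5.67), followed by Rpl7l1 (3.93), Rpl13a (3.50) and Rpl22 (3.43). Rpl5, part of the 5S ribonucleoprotein that can bind Mdm2, had its Mettl3 KO peak at mm9 chr5:108337138-108337483. The strongest Rps20 peak covered 1149 bp (chr4:3760279-3761427) in Mettl3 KO and 1050 bp (chr4:3760628-3761677) in wild-type, so both lists mark the same stretch.

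**Figure D3:**
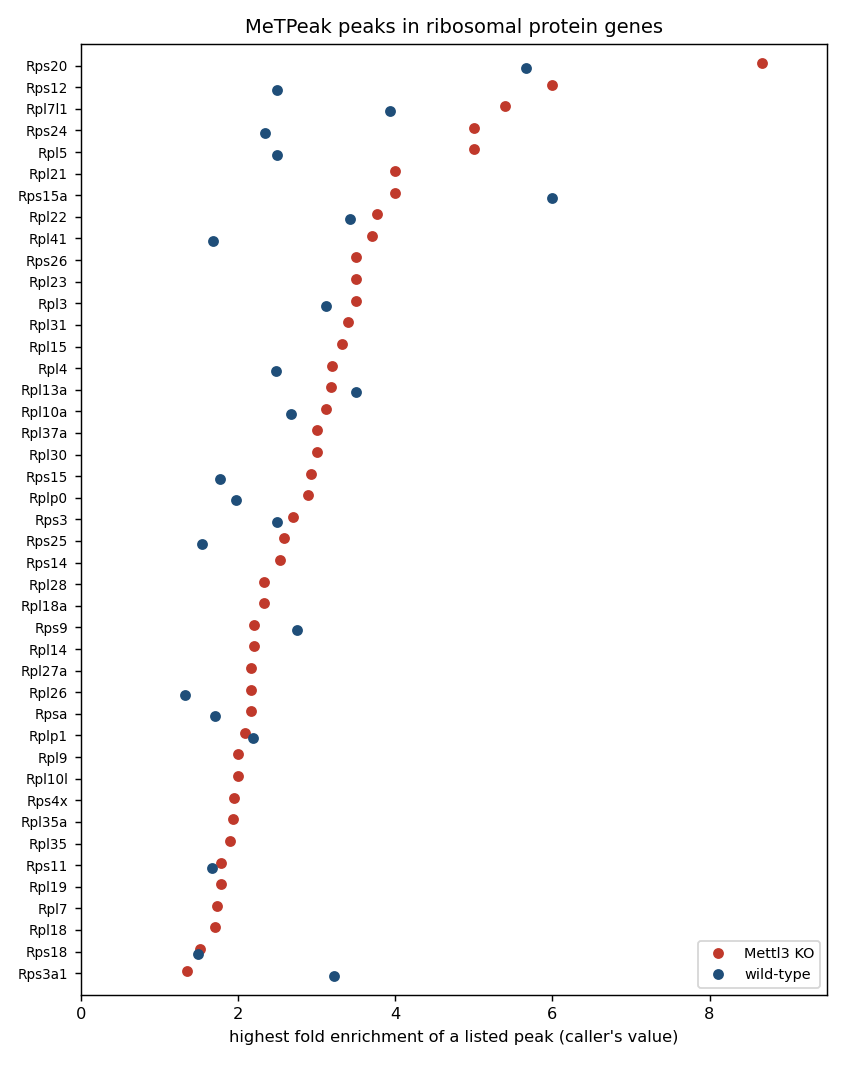
Highest fold enrichment of a MeTPeak peak (horizontal axis, the caller's value) for members with a peak, in Mettl3 KO (red) and wild-type (blue); a missing blue point means no listed wild-type peak. Rps20 leads in Mettl3 KO at 8.67, and 20 members have a red point alone.

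Of the paralogs, Rpl7l1, a ribosome biogenesis protein, was the only one with MeTPeak peaks in both genotypes. Its region had 15.2 RPM in m6A-CT and 6.47 RPM in input of Mettl3 KO, against 23.4 and 10.8 RPM in wild-type, with a change of 0.11 [-0.14 to 0.37]. Rpl10l, the testis form of Rpl10 in mammals, had 2 Mettl3 KO peaks of 2.00 and 1.47-fold and none in wild-type. Rps4l had 47.4 and 58.2 RPM in Mettl3 KO, against 34.7 and 45.6 RPM in wild-type (change 0.10). Rpl3l, the heart and skeletal muscle form of Rpl3, had 16 reads in all. Sequence near-identity of Rps4l to Rps4x and of Rpl10l to Rpl10 makes the origin of their reads uncertain.

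Across the 5 mouse MACS2 peak lists, most peaks in member genes had their summit in introns, as judged from the exon blocks that the genotype files list. The share of members with an exon peak was below that of all genes in each list. With lists of equal length, the EPSC exon share was near that of all genes (10.7% against 10.8%). The share with a span peak was near that of all genes in E14 at 100K (21.4% against 20.8%). In EPSC it was above that of all genes (35.7% against 29.1%), but near it with lists of equal length (12.5% against 11.7%). These differences were not tested. A peak touched an exon block in 3, 1 and 9 members in E14 at 5K, 25K and 100K nuclei, where 14.9%, 9.93% and 19% of all genes had one. It did so in 11 in EPSC, where 27.4% of all genes had one, and in 1 in MEF, where 39.8% had one. The span of a gene here reaches from its first to its last listed block, since no mm9 annotation was used. A member with few listed blocks thus has a short span, and peaks outside it were not counted. Counted over this span, members with a peak numbered 4, 6 and 12 in E14 at 5K, 25K and 100K, 20 in EPSC and 2 in MEF, or 7.14%, 10.7%, 21.4%, 35.7% and 3.57% of 56. The shares over all genes were then 16.9%, 11.4%, 20.8%, 29.1% and 41.3%.

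The share of span-marked members whose peak also touched an exon block was 75%, 16.7% and 75% in E14 at 5K, 25K and 100K, 55% in EPSC and 50% in MEF. Over all genes it was 88.0%, 87.1%, 91.2%, 94.2% and 96.2%. Of the member peaks in spans (7, 8 and 15 in E14 by rising nuclei number, 29 in EPSC and 2 in MEF), the summit lay in a gap between the blocks of a spliced row in 6, 7, 10, 22 and 1. It lay inside a block in 1, 0, 3, 2 and 1. Summit counts over all genes are not given here, so these counts do not show a trait particular to members. MACS2 peaks carry no strand. A snoRNA gene lay inside 10 of the 20 members with a span peak in any list and 11 of the 36 without.

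Rpl10a, a large subunit protein at the L1 stalk, and Rps24, which has 1 of its 2 starts with a tract, were marked in all 5 lists. Rpl10a peaks had folds of 2.81, 4.12 and 4.73 in E14 at 5K, 25K and 100K, 4.60 in EPSC and 2.49 in MEF. The MEF peak (mm9, chr17:28465612-28466124) reached past the 5′ end of the listed blocks, while the EPSC peak (chr17:28465967-28467306) began within them and ran into the gene. Rps24 peaks reached 7.58, 3.99 and 4.57-fold in E14 by rising nuclei number, 3.596-fold in EPSC and 5.17-fold in MEF. In 4 of these 5 lists the strongest Rps24 peak lay within the stretch chr14:25312750-25314486, almost wholly between listed blocks. At 5K it overlapped the end of that stretch and ran past it (chr14:25314254-25314893).

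Rpl3, a large subunit protein that reaches the peptidyl transferase centre, had 3 peaks in each E14 list, 4 in EPSC and none in MEF. In E14 at 100K its 1372 bp peak (mm9, chr15:79909502-79910873) had 17.4% of its length in listed blocks, and in EPSC the matching 1356 bp peak (chr15:79909448-79910803) had 12.5%. At most 23.3% of any Rpl3 peak lay in blocks, so the Rpl3 signal is mostly outside listed exons. The Rps12 peaks of 1297 bp in E14 at 100K and 1385 bp in EPSC had 17.8% and 22.6% in blocks.

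All 12 members with a span peak in E14 at 100K also had one in EPSC. Among these members were Rpl3, Rpl5, Rpl10a, Rpl23, Rpl30, Rpl32, Rpl35a, Rps12, Rps15a, Rps20 and Rps24. The matching share over all genes is not given here, so this overlap does not set members apart. EPSC added Rpl7l1, Rpl9, Rpl22, Rpl27a, Rpl31, Rps3a1, Rps9 and Rps18, of which Rps18 was also marked in E14 at 5K. Wholly exonic peaks were those of Rpl32 and Rps20 in E14 at 100K and EPSC, and of Rps15a in E14 at 100K. The lists differ in length, from 3923 peaks in E14 at 25K to 38205 in MEF, so their counts do not rank the cells. In the longest list, MEF, fibroblast markers had an exon peak in 2 of 3 that could be placed, and stem cell markers in 1 of 8. In EPSC these counts were 0 of 3 and 5 of 8, and in E14 at 100K 0 of 3 and 6 of 8.

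**Figure D4:**
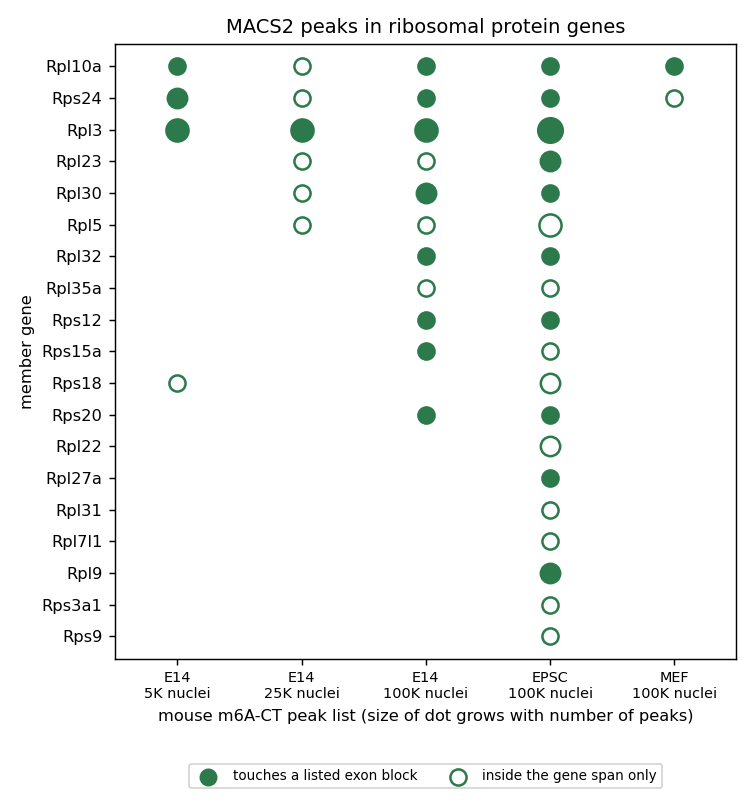
Members with a MACS2 peak in any of the 5 mouse lists (rows), by list (columns), with a filled dot where a peak touches a listed exon block and an open dot where it lies in the gene span only; dot size grows with the number of peaks. Only Rpl10a and Rps24 have dots in all 5 columns, and the MEF column holds 2 dots.

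Other genes of the ribosome and its supply gave mixed values in the libraries labelled Mettl3 KO and wild-type. Outside the symbol rule, Rack1, a scaffold on the small subunit, had 141 RPM in m6A-CT and 153 RPM in input of Mettl3 KO, against 142 and 198 RPM in wild-type (change 0.36). Other TOP transcripts with enough reads numbered 7 of 14, with a median change of 0.27. None of the 7 was past 2-fold, where 37.8% of all genes were lower and 9.09% higher. Among these TOP transcripts the poly(A)-binding protein gene Pabpc1 had 102 RPM in m6A-CT and 22.8 RPM in input of Mettl3 KO, against 187 and 65.8 RPM in wild-type (change 0.66). The elongation factor gene Eef1a1 had 344 and 142 RPM in Mettl3 KO, against 352 and 196 RPM in wild-type (0.43).

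The median change of 21 ribosome biogenesis genes was -0.06, against -0.77 over all genes. Among the 21, 4 were at least 2-fold lower (37.8% of all genes) and 5 higher (9.09%). The lower ones were Rrs1 (-1.52), Polr1b (-1.12), Polr1a (-1.04) and Rpf2 (-1.04), of which Polr1a and Polr1b code for subunits of RNA polymerase I. The higher ones were Bop1 (2.44, over 101 reads), Fbl (1.38), Wdr12 (1.35), Heatr1 (1.18) and Utp20 (1.03), of which Fbl codes for fibrillarin, the snoRNA-guided methyltransferase. Of 7 genes that regulate TOP transcripts or ribosomal protein supply, none was at least 2-fold lower (37.8% of all genes). Larp1b (2.60, over 98 reads) and Mtor (1.28) were higher (9.09% of all genes). Larp1 itself, the TOP-binding repressor, had 93.2 RPM in m6A-CT and 19.0 RPM in input of Mettl3 KO, against 193 and 25.1 RPM in wild-type (-0.66).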

How the data were processed

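The submitters' processing notes name Trim Galore, STAR 2.7.2 and MACS2 as tools and mm9 among the builds. The sample labels name MeTPeak and exomePeak2 for the genotype files, with versions and settings not given in the sources used here. The deposited region table holds RPM values made by the authors, 1 pooled column per genotype and library kind, with their log2 fold change, p-value and FDR. Deposited MeTPeak lists give a fold (ratio) and a p-value per peak, and deposited MACS2 lists a fold and −log10 q, all at least 10. MeTPeak p-values were not used here.

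From the RPM values, all steps gave whole reads within 0.06 of a read, so counting intervals were exact binomial for ratios, and normal on the log scale for the change. Regions needed at least 50 reads over the 4 columns. With no replicate values no count test was run, called means past 2-fold, and the computing was tested on simulated data. A gene stands for its most read region, unless said otherwise. MACS2 peaks were assigned to members by at least 1 bp of overlap with blocks of the genotype files (starts written 1-based), without strand. All 56 member regions are accounted for, 8 of them under 50 reads. RefSeq symbols matched 55 of 56 members. Intron means a gap between blocks of a spliced row, since no mm9 annotation was used. Members, gene lists and the rule for named genes (highest and lowest changes and enrichments, recurrent or strongest peaks, paralogs, stalk proteins) were chosen with earlier results of these data known. HEK293T lists were not used. Some genes that enter the counts are not reported by name here, nor drawn in the figures. Python 3.11.15, pandas 2.3.3, numpy 2.4.6, scipy 1.17.1 and matplotlib 3.10.9 were used.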

Additional observations from a re-analysis of the deposited data

How the results depend on the processing

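Counts of member regions are set by the scale and the read minimum. With Lars2 and Rn45s left out of the totals, regions at least 2-fold enriched were 2 in Mettl3 KO (10.1% of all regions) and 1 in wild-type (28.1%), input was at least 2-fold lower in Mettl3 KO in 1 (4.3%), and m6A-CT higher in 10 (6.89%). With no read minimum, 14 of 56 member regions were enriched in wild-type (74.6% of all regions), and the change was lower in 12 (42.8%). By the log2 fold change of the authors' deposited table it was at least 2-fold higher in 3 (5.5% of all regions), and at 1.5-fold it was higher in 12 (9.64%). In MeTPeak, peaks of at least 2-fold were listed for 35 members in Mettl3 KO and 15 in wild-type. The share of all genes at 2-fold is not given here, so these counts do not set members apart. Peaks of at least 5-fold were listed for 5 in Mettl3 KO and 2 in wild-type. Those were 11.4% and 8.33% of members with a peak, against 54.6% and 72.3% of genes with a peak. For MACS2 counts in E14 at 5K, 25K and 100K, EPSC and MEF, asking for at least 50% of the peak in blocks left 1, 0, 3, 2 and 0 members (13.8%, 9.3%, 17.95%, 26.2% and 37.5% of all genes), and −log10 q of at least 20 left 2, 0, 4, 7 and 0 (5.93%, 3.96%, 8.82%, 15.0% and 29.3%). With lists of equal length they were 2, 1, 4, 6 and 0 (12.9%, 9.93%, 9.88%, 10.8% and 6.92%), over spans 4, 6, 12, 20 and 2, and with both, chosen after seeing the data, 2, 6, 7, 7 and 0 (14.6%, 11.4%, 11.1%, 11.7% and 7.16%). No gene change past 2-fold turned its sign under the alternatives run, and summing regions moved Rps12 to 1.13. The cause of these shifts was not tested. No paired analysis was possible because the columns and lists carry no replicate number, and leaving out a replicate could not be run for the same reason. Depth limits the 8 member regions under 50 reads.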

Other observations

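Mitochondrial ribosomal proteins, the products of the Mrpl and Mrps genes that build the ribosome inside mitochondria, had a change between genotypes near that of all genes. Of 50 such genes in the files, 46 had a region with at least 50 reads. The median change was 0.09 for the 26 cytosolic members, -0.74 for the mitochondrial genes and -0.77 for all genes. In the mitochondrial genes it was at least 2-fold lower in Mettl3 KO in 16 and higher in 6, against 37.8% and 9.09% of all genes. Median m6A-CT over input was 1.38 in Mettl3 KO and 1.41 in wild-type for the cytosolic members, against 1.04 in Mettl3 KO and 1.87 in wild-type for the mitochondrial genes. Input of the mitochondrial genes was at least 2-fold higher in Mettl3 KO in 11 of 46 and lower in 2, where 11% and 10% of all genes were. These values have no replicate error, and the difference between the gene sets was not tested.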
